A study of Homo sapiens with 12 samples.

Results

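The comparison of DU145KO+α2 with DU145KO+vector asked which transcripts differed when the α2 subunit of integrin was put back into cells that had lost it. It rests on 8 of the 12 samples of the series, 4 per line, and on the 14438 of 26485 genes that passed a filter on low counts. DU145 is an established human prostate cancer cell line. In all 8 samples the ITGA2 gene had been disrupted with Crispr/Cas9. DU145KO+α2 was then stably transfected with α2 integrin cDNA in the pAWneo2 vector and DU145KO+vector with the same vector without an insert, and both lines were kept in geneticin. Transfected cells had been picked by GFP, and cells that still carried α2 at the surface were sorted away before the knockout line was transfected again. The methods describe 1 transfected line of each kind, so a difference that came with the derivation and one that came with α2 cannot be told apart in these 8 samples. The parental knockout DU145KO, with 4 samples and no second transfection, is given beside some of the results as a reference. RNA came from spheroids of 8000 cells each after 72 hours in serum-free RPMI medium.

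The α2 subunit pairs with β1 (ITGB1) to form a cell surface receptor for collagens. Integrins connect the extracellular matrix to the actin cytoskeleton through talin and other focal adhesion proteins, and they signal through focal adhesion kinases, MAP kinases and small GTPases. Secreted factors, adhesion receptors, membrane transporters and transcription factors are the classes through which such signals usually reach neighbouring cells, the matrix, metabolism and gene expression.

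The gene counts of the 8 samples summed to 13948734 to 19988111, with medians of 16749863 in DU145KO+α2 and 15725110 in DU145KO+vector (two-sided exact permutation test, p = 0.457). Levels below are CPM, read counts scaled to a common library size with TMM factors, and 3 counts correspond to 0.150 to 0.215 CPM. A gene was called when edgeR's quasi-likelihood test, with the replicate number as a block, gave a p-value below 0.05 after Benjamini-Hochberg adjustment over the 14438 genes. The adjusted p-values below come from that fit, except where another fit or a comparison with DU145KO is named. Log2 fold changes are DU145KO+α2 relative to DU145KO+vector, with their standard error (SE). Values against DU145KO come from one model of all 12 samples, which shares the DU145KO+α2 libraries with the main comparison and is no independent check of it.

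ITGA2 (chr5:52989352-53094779) reached 301, 328, 332 and 259 CPM in the re-expressing line (replicates 1 to 4, the order used throughout), against 18.8, 18.2, 20.2 and 13 CPM in DU145KO+vector and 21.2, 20.1, 25.8 and 15.7 CPM in DU145KO. The edited locus was still transcribed in both α2 negative lines. Its log2 fold change was 4.12 (SE 0.06, adjusted p = 2.05e-26), and no sample of one line overlapped the other. ITGB1, the partner subunit, rose by 0.52 on the log2 scale (SE 0.06, adjusted p = 4.84e-07).

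Most of the response was small. Of the genes tested, 2067 (14.3%) were higher and 2236 (15.5%) lower in DU145KO+α2. Only 350 of these 4303 genes differed by more than 2-fold, 225 of them higher (1.56% of the genes tested) and 125 lower (0.866%). The other 3953 differed by 2-fold or less, 1842 higher and 2111 lower. Their median fold change was 1.25, and 90% of them lay between the 5th and 95th percentiles of 1.12 and 1.76. Of the mid-size genes, 3259 (82.4%) differed by no more than 1.5-fold.

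The balance of the directions turned with the size of the change. Between 1- and 1.25-fold, 838 genes were higher and 1126 lower. From 1.25- to 1.5-fold the counts were 622 and 673, from 1.5- to 2-fold they were 382 and 312, and above 2-fold they were 225 and 125. The excess of small decreases moved with the processing. Among the mid-size genes 1819 were higher and 1834 lower with the median of neighbouring genes removed, and 1932 and 2026 with DESeq2 size factors, so genes higher by less than 2-fold and genes lower by less than 2-fold were then nearly even. The excess remained in other settings, with 1788 higher and 2103 lower by voom and limma, and 1723 and 2227 with library size alone.

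The mid-size genes were also the ones with more reads behind them. Their median average level was 5.34 log2 CPM, against 1.22 for the genes above 2-fold and 4.86 for all genes tested, and this is a depth per gene, not a level per length. The median SE was 0.07 for the mid-size genes and 0.24 for the larger changes. A small change passes the test only with a small SE, so these contrasts in level and SE follow in part from the calling rule. In DU145KO+vector the mid-size genes took 34.5% of all reads and the larger changes 0.425%.

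How well a mid-size change could be seen depended on the replicate number. The 4 numbered pairs all had the same sign in 93.7% of the mid-size genes, 99.4% of the larger ones and 43.9% of all genes tested. The samples of the 2 lines did not overlap in 48.9% of the mid-size and 88.6% of the larger changes, beside 17.3% of all genes tested. In the fit without the replicate block 1808 genes were called, 1492 of them mid-size, and 1801 of the 1808 were also called with the block in the same direction.

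**Figure D1:**
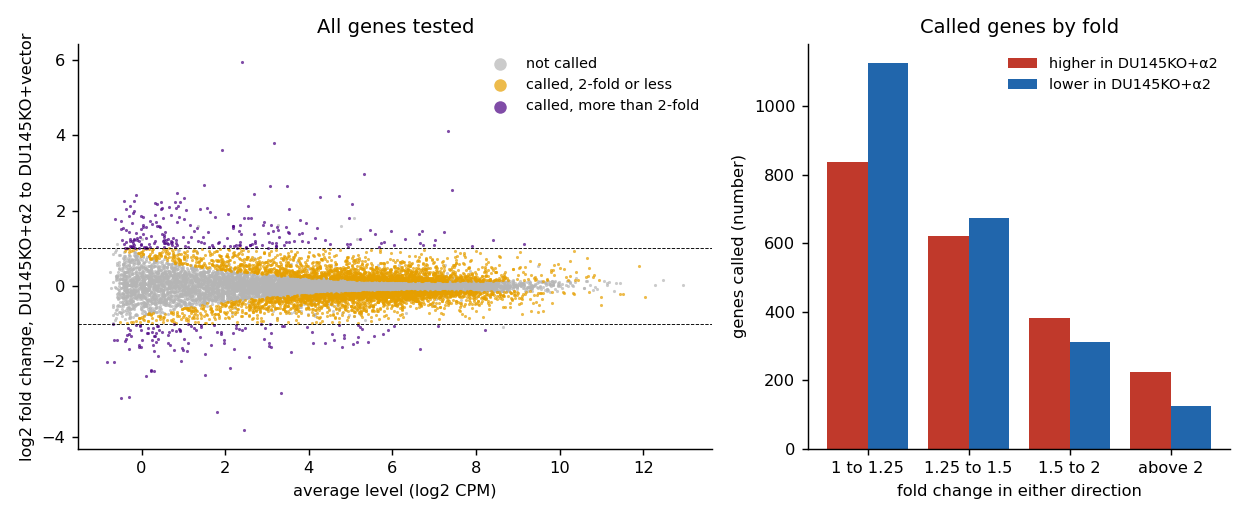
The left panel plots the log2 fold change of each of the 14438 genes tested (vertical axis) against its average level in log2 CPM, with genes called above 2-fold in purple, genes called at 2-fold or less in orange and the rest in grey, and dashed lines at 2-fold. The right panel counts the called genes by fold change and direction, from 838 higher and 1126 lower between 1- and 1.25-fold to 225 higher and 125 lower above 2-fold.

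Genes were put into 4 functional classes by the families that their symbols name, protein coding genes only: secreted proteins, adhesion proteins, transporters and channels, and transcription factors. Calls were most frequent in the secreted class. Of 305 secreted genes tested (747 in the table), 84 (27.5%) were higher and 65 (21.3%) lower, with 19 and 14 beyond 2-fold. Of 240 adhesion genes, 59 (24.6%) were higher and 51 (21.2%) lower, with 10 and 5 beyond 2-fold. Of 419 transporters, 85 (20.3%) were higher and 80 (19.1%) lower, with 14 and 9 beyond 2-fold. All 3 classes were above the shares of all genes in both directions.

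Transcription factors differed from the other classes in direction. Of 955 tested, 164 (17.2%) were higher and 75 (7.85%) lower, so the share higher was near the 14.3% of all genes and the share lower well under their 15.5%. Only 17 and 4 of them passed 2-fold. The median log2 fold change was 0.10 for secreted genes, 0.02 for adhesion genes, 0.00 for transporters and 0.05 for transcription factors, beside −0.01 for all genes tested. The 12519 genes in none of the classes held 1675 (13.4%) higher and 1965 (15.7%) lower.

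**Figure D2:**
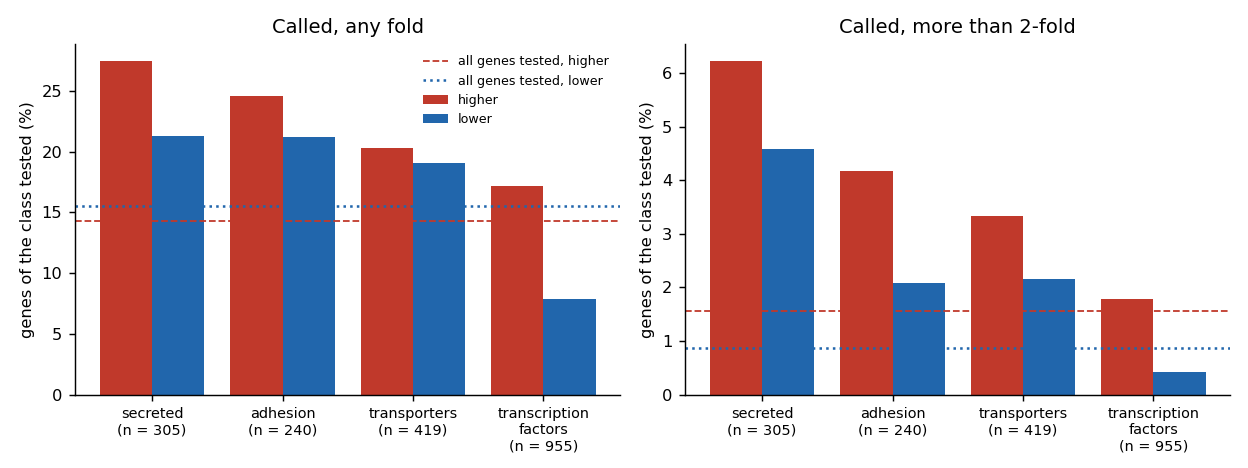
Bars give the percentage of the genes tested in each class that were called higher (red) or lower (blue) in DU145KO+α2, at any fold on the left and above 2-fold on the right, with n under each class, and the lines give the same shares over all 14438 genes. Secreted, adhesion and transporter genes sit above both lines in both panels, and transcription factors sit below the blue line in both.

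Collagens and laminins had 7 genes higher and 12 lower of 34 tested, and matrix glycoproteins and proteoglycans 9 higher and 13 lower of 40. Their medians were −0.05 and 0.01, near that of all genes, and the glycoproteins had 7 higher and 8 lower without the replicate block. COL17A1, a transmembrane collagen of hemidesmosomes, fell by 1.51 on the log2 scale (SE 0.14, adjusted p = 3.46e-08). LAMB3, a laminin chain, fell by 0.48 (SE 0.06, adjusted p = 4.08e-06), and fibronectin (FN1) fell by 0.52 (SE 0.06, adjusted p = 2.99e-07). COL4A3, COL4A4, COL9A2, COL11A2, COL21A1, COL24A1 and LAMA1 were the members that rose, by 0.62 to 1.22, although COL24A1 was called in 0 of 12 fits that left out samples. FN1 stood at 73.5 CPM in DU145KO, near the 70.3 ± 13.1 (SD, n = 4) of DU145KO+α2, and at 100 ± 6.6 in DU145KO+vector.

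VWA2, a von Willebrand A domain matrix protein, was the matrix gene with the largest fall. Its levels were 2.92, 2.60, 2.07 and 2.48 CPM with α2 and 9.69, 10.4, 9.14 and 7.64 CPM in DU145KO+vector. The 4 DU145KO samples, at 10.6, 9.22, 7.98 and 8.02 CPM, lay with the vector line. The log2 fold change was −1.88 (SE 0.14, adjusted p = 1.49e-10). COL6A1, a chain of type VI collagen, was the mid-size example at 186, 203, 194 and 183 CPM against 246, 276, 284 and 258 CPM. The 2 lines did not overlap, and its log2 fold change was −0.47 (SE 0.05, adjusted p = 3.94e-08). EGFL7, a secreted regulator of vessel formation, was at 28.7, 31.4, 26.6 and 26.4 CPM against 49.5, 46.2, 48.5 and 37.2 CPM (log2 fold change −0.68, SE 0.07, adjusted p = 2.83e-08), and lies in a part of chromosome 9 whose genes were lower as a whole.

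Of 13 secreted guidance proteins tested 8 were higher and 2 lower, and of 14 WNT ligands and antagonists 7 were higher and 1 lower. Their median log2 fold changes were 0.52 and 0.35. SEMA3A, SEMA3B, SEMA3C, SEMA3F, SEMA3G, SLIT2, NTN4 and LGI4 rose by 0.22 to 1.55, and SEMA3E and SLIT1 fell. SEMA3G was called in 3 and NTN4 in 6 of 12 fits that left out samples. WNT5A, a ligand of β-catenin independent WNT signalling, rose by 0.87 (SE 0.11, adjusted p = 5.94e-07) and WNT5B by 2.06 (SE 0.30, adjusted p = 5.42e-06), while WNT11 fell by 0.85.

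WNT3, which signals through β-catenin, reached 142, 94.7, 102 and 133 CPM with α2 and 90.6, 49.2, 57.8 and 78.7 CPM in DU145KO+vector. Each replicate of DU145KO+α2 was above the vector sample of its own number and the lines did not overlap. The log2 fold change was 0.79 (SE 0.06, adjusted p = 3.72e-11 with the block and 0.0470 without). LTBP2, a latent TGF-β binding protein of elastic fibres, went the same way at 162, 171, 140 and 130 CPM against 107, 108, 81.3 and 81.0 CPM. This gave a log2 fold change of 0.68 (SE 0.05, adjusted p = 1.2e-10).

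SEMA3E, a class 3 semaphorin that signals through plexin D1, was low in DU145KO+α2 and high in the vector line only. Its levels were 0.869, 0.449, 0.944 and 1.53 CPM with α2, 2.99, 4.52, 4.94 and 6.61 CPM in DU145KO+vector and 0.727, 0.488, 0.983 and 0.819 CPM in DU145KO. Its log2 fold change came to −2.35 (SE 0.22, adjusted p = 5.43e-09) against DU145KO+vector and 0.30 (adjusted p = 0.544) against DU145KO. IGFBP2, which binds insulin-like growth factors, was at 85.8, 54.0, 84.1 and 53.6 CPM against 17.4, 6.10, 8.11 and 4.82 CPM in DU145KO+vector, with DU145KO at 33.4, 15.3, 28.1 and 26.2 CPM, below every DU145KO+α2 sample. The log2 fold change of IGFBP2 was 2.98 (SE 0.25, adjusted p = 0.00373).

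Proteases and their inhibitors rose more often than they fell, with 16 higher and 6 lower of 44 tested beside the metalloproteinases, which had 5 higher and 4 lower of 21. MMP1, the interstitial collagenase, rose by 2.39 (SE 0.10, adjusted p = 1.33e-13), and lysyl oxidase (LOX), which crosslinks collagen, by 1.15 (SE 0.15, adjusted p = 1.84e-05). Among growth factor ligands, EREG, an EGF receptor ligand, was at 198 ± 28.7 against 117 ± 6.64 CPM (SD, n = 4) and TGFA, another, at 23.1 ± 1.96 against 35.5 ± 3.48 CPM. EREG had a log2 fold change of 0.75 (SE 0.06, adjusted p = 2.79e-10) and TGFA of −0.62 (SE 0.07, adjusted p = 1.07e-07), so 2 ligands of the same receptor moved apart. Cytokines had 8 genes higher and 6 lower of 26, and among them IL11 rose by 0.90 (SE 0.18, adjusted p = 0.000266).

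STC1, a secreted glycoprotein hormone, was the least certain of the named secreted genes. It was at 12.3, 11.3, 12.7 and 20.2 CPM with α2 and 4.10, 2.44, 1.21 and 1.03 CPM in DU145KO+vector. No samples overlapped, yet the adjusted p was 0.0358 for a log2 fold change of 2.65 (SE 0.51), and the gene was called in 6 of 12 fits that left out samples. DU145KO, at 8.07, 7.81, 7.19 and 5.73 CPM, lay between the 2 lines. Against DU145KO the log2 fold change was 0.96 for DU145KO+α2 (adjusted p = 0.0867) and −1.70 for DU145KO+vector.

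Adhesion genes changed in opposite directions within most families. Of 20 integrin subunits tested 5 were higher and 6 lower. Besides ITGA2 and ITGB1, ITGA9 rose by 1.84 (SE 0.40, adjusted p = 0.0172), ITGA2B by 0.51 and ITGB8 by 0.40. ITGA3, ITGAV and ITGA6, which also pair with β1, fell by 0.35 (SE 0.05, adjusted p = 1.75e-05), 0.30 (SE 0.05, adjusted p = 4e-05) and 0.17 (SE 0.05, adjusted p = 0.0178). ITGA11, another collagen receptor subunit, fell by 0.76, and ITGB2, the leukocyte β2 chain, fell by 0.84 (SE 0.08, adjusted p = 9.21e-09).

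ITGB4, which joins α6 in hemidesmosomes, was at 22.2, 25.3, 21.7 and 18.9 CPM with α2 and at 39.7, 44.4, 38.7 and 32.8 CPM in the vector line. The DU145KO samples, at 44.3, 42.9, 44.8 and 43.3 CPM, were also above every DU145KO+α2 sample. Its log2 fold change was −0.82 (SE 0.07, adjusted p = 4.4e-10). With LAMB3, COL17A1 and ITGB4, 3 genes whose products meet in hemidesmosomes were lower. These 3 were grouped after their values were seen, and no test was made of the group.

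CDH5, the cadherin of endothelial junctions, had the largest log2 fold change of the adhesion genes. It was at 10.6, 8.99, 12.2 and 7.82 CPM with α2, at 0.166, 0.00, 0.172 and 0.275 CPM in DU145KO+vector and at 1.39, 1.16, 1.29 and 1.23 CPM in DU145KO. The fitted value of 5.94 (SE 0.27, adjusted p = 7.64e-15) rests on 0 to 4 counts per vector sample, and against DU145KO it was 2.95. JAM3, a junctional adhesion molecule, was at 16.1, 20.4, 17.7 and 20.2 CPM against 4.04, 4.09, 1.95 and 1.72 CPM (log2 fold change 2.65, SE 0.24, adjusted p = 0.000228). Exons of NCAPD3 on the opposite strand cover 35.6% of the JAM3 exon bases, and whether the counting used the strand is not given in the sources used here.

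Tight and gap junction genes had 10 higher and 7 lower of 31. Claudins moved apart, with CLDN4 higher by 1.09 and CLDN1 and CLDN7 lower by 0.81 and 0.42. Of 24 tetraspanins, organisers of integrins in the membrane, 6 were higher and 10 lower, the latter including CD9, which fell by 0.32 (SE 0.05, adjusted p = 3.05e-05) and CD82, which fell by 0.39 (SE 0.11, adjusted p = 0.0105). The cadherins had 4 higher and 4 lower of 16, and CDH1 (E-cadherin), at 61.3 ± 14.5 against 99.8 ± 13.4 CPM (SD, n = 4), did not pass the test (adjusted p = 0.0773 with the block and 0.0154 without).

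SYK, a cytoplasmic tyrosine kinase placed here with the focal adhesion genes, was at 1.68, 1.8, 1.06 and 1.65 CPM with α2, below all 4 vector samples at 7.81, 7.54, 6.78 and 5.92 CPM and all 4 DU145KO samples at 7.40, 8.61, 7.92 and 6.90 CPM. This gave a log2 fold change of −2.18 (SE 0.17, adjusted p = 2.09e-10), and neighbouring genes on chromosome 9 had a median of −0.31. PTK2B, the kinase related to focal adhesion kinase, was higher at 67, 67, 69.6 and 72.1 CPM against 44.1, 32.5, 30.1 and 35.0 CPM (log2 fold change 0.97, SE 0.08, adjusted p = 9.02e-07), on chromosome 8 where the median of its neighbours was 0.46. Talin (TLN1) fell by 0.67 (SE 0.06, adjusted p = 5.01e-10). It lies on chromosome 9, where 61.6% of the genes tested were lower and the median log2 fold change was −0.3.

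CEACAM6, a carcinoembryonic antigen family receptor, was at 18.4, 27.5, 17.4 and 17.4 CPM with α2 and 30.2, 55.6, 53.2 and 71.2 CPM in DU145KO+vector. Its log2 fold change was −1.34 (SE 0.28, adjusted p = 0.0447), called in 6 of 12 fits that left out samples. CEACAM5, a close paralog whose reads may be split with it, fell by 1.51. Of 30 protocadherins 6 were higher and 3 lower. PCDHB2, from the β cluster, was at 23, 21.9, 21.5 and 22.1 against 17.2, 15.8, 13.7 and 13.9 CPM (log2 fold change 0.55, SE 0.08, adjusted p = 9.14e-06), with DU145KO overlapping both at 24.5, 19.0, 15.6 and 20.6 CPM.

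Transporters and channels were balanced in direction. Amino acid and peptide carriers had 13 higher and 10 lower of 35 tested, with 5 of the 13 and 1 of the 10 beyond 2-fold. SLC7A2, a carrier of arginine and lysine, rose by 1.78 (SE 0.26, adjusted p = 7.67e-06) and SLC1A1, a glutamate and aspartate carrier, by 1.43 (SE 0.17, adjusted p = 0.000156). SLC7A11, the cystine carrier, and SLC3A2, its heavy chain, fell by 0.28 (SE 0.05, adjusted p = 0.00018) and 0.18. Mitochondrial carriers had 5 higher and 12 lower of 51, and SLC25A37, which brings iron into mitochondria, was the member that rose most (log2 fold change 0.68, SE 0.08, adjusted p = 8.64e-05), on chromosome 8 where its neighbours had a median of 0.48.

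SLC16A9, a monocarboxylate carrier, was at 23.2, 21.6, 24 and 26 CPM with α2 and 48.4, 42.6, 54.4 and 49.8 CPM in DU145KO+vector. The samples of each line stood close together, and the log2 fold change was −1.04 (SE 0.07, adjusted p = 4.61e-12). In DU145KO it was at 25.6, 30.2, 33.6 and 39.7 CPM, where the lowest sample overlapped DU145KO+α2 and the highest was below every vector sample. ABCC4, an exporter of cyclic nucleotides and drugs, was at 203, 214, 201 and 156 CPM against 273, 316, 298 and 259 CPM. That mid-size change had a log2 fold change of −0.57 (SE 0.05, adjusted p = 4.45e-09).

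CACNA1D, the pore of an L-type calcium channel, was at 9.68, 8.24, 11.5 and 7.06 CPM against 3.16, 2.08, 3.16 and 2.06 CPM (log2 fold change 1.8, SE 0.14, adjusted p = 2.21e-10). ATP2B4, a calcium pump of the plasma membrane, was at 468, 414, 550 and 480 CPM against 309, 263, 274 and 274 CPM (log2 fold change 0.77, SE 0.06, adjusted p = 2.11e-09). Its DU145KO samples, at 386, 417, 359 and 268 CPM, overlapped both lines, and the log2 fold change against DU145KO was 0.43 (adjusted p = 0.0504). ATP2A2, the calcium pump of the endoplasmic reticulum, rose by 0.59 (SE 0.06, adjusted p = 7.76e-08). These 3 were set side by side after their values were seen. Of 43 calcium, sodium and TRP channels 9 were higher and 14 lower. The counts were 5 and 9 without the replicate block and 6 and 11 by DESeq2. Of 54 P-type and V-type ATPases 7 were higher and 9 lower, shares near those of all genes tested. Their direction turned with the fit, with 4 higher and 1 lower without the replicate block and 5 and 2 by DESeq2.

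SCNN1A, the α subunit of the epithelial sodium channel, was at 25.5, 21, 21.7 and 15.6 CPM with α2, at 53.1, 37.8, 35.8 and 30.1 CPM in DU145KO+vector and at 87.1, 59.6, 76.7 and 65.9 CPM in DU145KO, 3 ranges that did not overlap. Its log2 fold change was −0.89 (SE 0.07, adjusted p = 3.24e-10) against the vector line and −1.79 against DU145KO. P2RX6, an ATP gated channel subunit, was lower at 1.18, 1.8, 1.59 and 1.21 CPM against 2.77, 3.73, 2.93 and 3.10 CPM (log2 fold change −1.11, SE 0.20, adjusted p = 9.5e-05). SLC4A4, a sodium bicarbonate cotransporter, was higher at 84.5, 78.3, 79.4 and 77.4 CPM against 49.2, 46.6, 47.5 and 53.8 CPM (log2 fold change 0.70, SE 0.06, adjusted p = 6.93e-10). Against DU145KO the log2 fold change of SLC4A4 was 0.29 for DU145KO+α2 and −0.41 for DU145KO+vector. SLC18A2, which loads monoamines into vesicles, was at 3.41, 3.30, 3.13 and 2.48 CPM against 0.942, 0.574, 0.517 and 1.03 CPM (log2 fold change 2.01, SE 0.25, adjusted p = 4.12e-07), and exons of PDZD8 on the opposite strand cover 52.3% of its exon bases.

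The lean of the transcription factors towards higher levels ran through most families. Homeobox genes had 26 higher and 7 lower of 87 tested, nuclear receptors 10 and 3 of 29, forkhead genes 9 and 2 of 26, and the group of SMAD, TEAD, RUNX, GATA and T-box genes 8 and 0 of 25. C2H2 zinc finger genes, the largest family, had 63 higher and 35 lower of 563, so only 17.4% of them were called beside 29.8% of all genes. The group of E2F, MYB and related factors had 2 higher and 6 lower of 14, the latter including E2F8 (log2 fold change −0.73, SE 0.19, adjusted p = 0.0042), but 0 in either direction without the replicate block.

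RORA, a nuclear receptor of circadian regulation, rose by 1.05 (SE 0.16, adjusted p = 9.54e-06). SMAD2, which carries TGF-β signals, was at 236 ± 20.2 against 137 ± 16.3 CPM (SD, n = 4), a log2 fold change of 0.79 (SE 0.08, adjusted p = 7.23e-05). SOX4 rose by 0.50 (SE 0.06, adjusted p = 1.63e-06). PAX6, an eye and brain homeobox factor, fell by 2.22 (SE 0.32, adjusted p = 4.24e-06), at levels of 0.377 ± 0.163 against 1.77 ± 0.558 CPM.

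ZNF853, a zinc finger protein, had the largest fold change of the class. It was at 6.95, 7.49, 6.79 and 4.90 CPM with α2 and at 0.831, 0.502, 0.517 and 0.206 CPM in DU145KO+vector (log2 fold change 3.62, SE 0.22, adjusted p = 1.8e-12). IRX3, an Iroquois homeobox factor, was at 3.66, 3.35, 5.90 and 5.60 CPM against 1.22, 0.431, 0.632 and 0.482 CPM (log2 fold change 2.69, SE 0.26, adjusted p = 1.09e-07). The DU145KO samples of IRX3, at 3.17, 2.14, 1.04 and 1.87 CPM, were below every DU145KO+α2 sample and overlapped the vector line. ATOH8, a bHLH factor, fell by 1.75 (SE 0.12, adjusted p = 1.71e-10), from 16.8, 17.8, 18.1 and 21.5 CPM in the vector line to 5.77, 5.84, 6.08 and 4.26 CPM. Its DU145KO samples, at 10.2, 8.67, 9.95 and 8.83 CPM, lay between the 2 lines. Against DU145KO the log2 fold change of ATOH8 was −0.77 for DU145KO+α2 and 0.98 for DU145KO+vector.

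The mid-size factors with the smallest p-values were EPAS1, XBP1, PBX3 and CREB3. EPAS1, the hypoxia inducible factor HIF-2α, was at 191, 161, 178 and 139 CPM with α2 and 125, 109, 92.0 and 81.6 CPM in DU145KO+vector (log2 fold change 0.73, SE 0.06, adjusted p = 2.11e-09). In DU145KO it was at 218, 194, 182 and 141 CPM, so DU145KO+α2 was not above it (log2 fold change −0.13, adjusted p = 0.127). XBP1, a factor of the unfolded protein response, was at 248, 230, 172 and 234 CPM against 166, 149, 116 and 148 CPM (log2 fold change 0.61, SE 0.05, adjusted p = 4.12e-10), and the difference from DU145KO was 0.15 (adjusted p = 0.127).

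PBX3, a homeobox cofactor, was lower at 55.9, 52.8, 51.1 and 60.3 CPM against 88.0, 93.7, 103 and 103 CPM (log2 fold change −0.82, SE 0.06, adjusted p = 6.3e-11). CREB3, a membrane bound bZIP factor, was lower at 53.3, 63.4, 51.9 and 57.8 CPM against 81.8, 100, 91.2 and 107 CPM (log2 fold change −0.74, SE 0.06, adjusted p = 1.74e-10). Against DU145KO the log2 fold changes of DU145KO+α2 were −0.30 for PBX3 and −0.38 for CREB3, and those of DU145KO+vector were 0.51 and 0.36. Both genes lie on chromosome 9. With the median of the neighbouring genes taken away, the value of PBX3 was −0.52 (adjusted p = 1.68e-07) and that of CREB3 −0.17 (adjusted p = 0.0296).

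**Figure D3:**
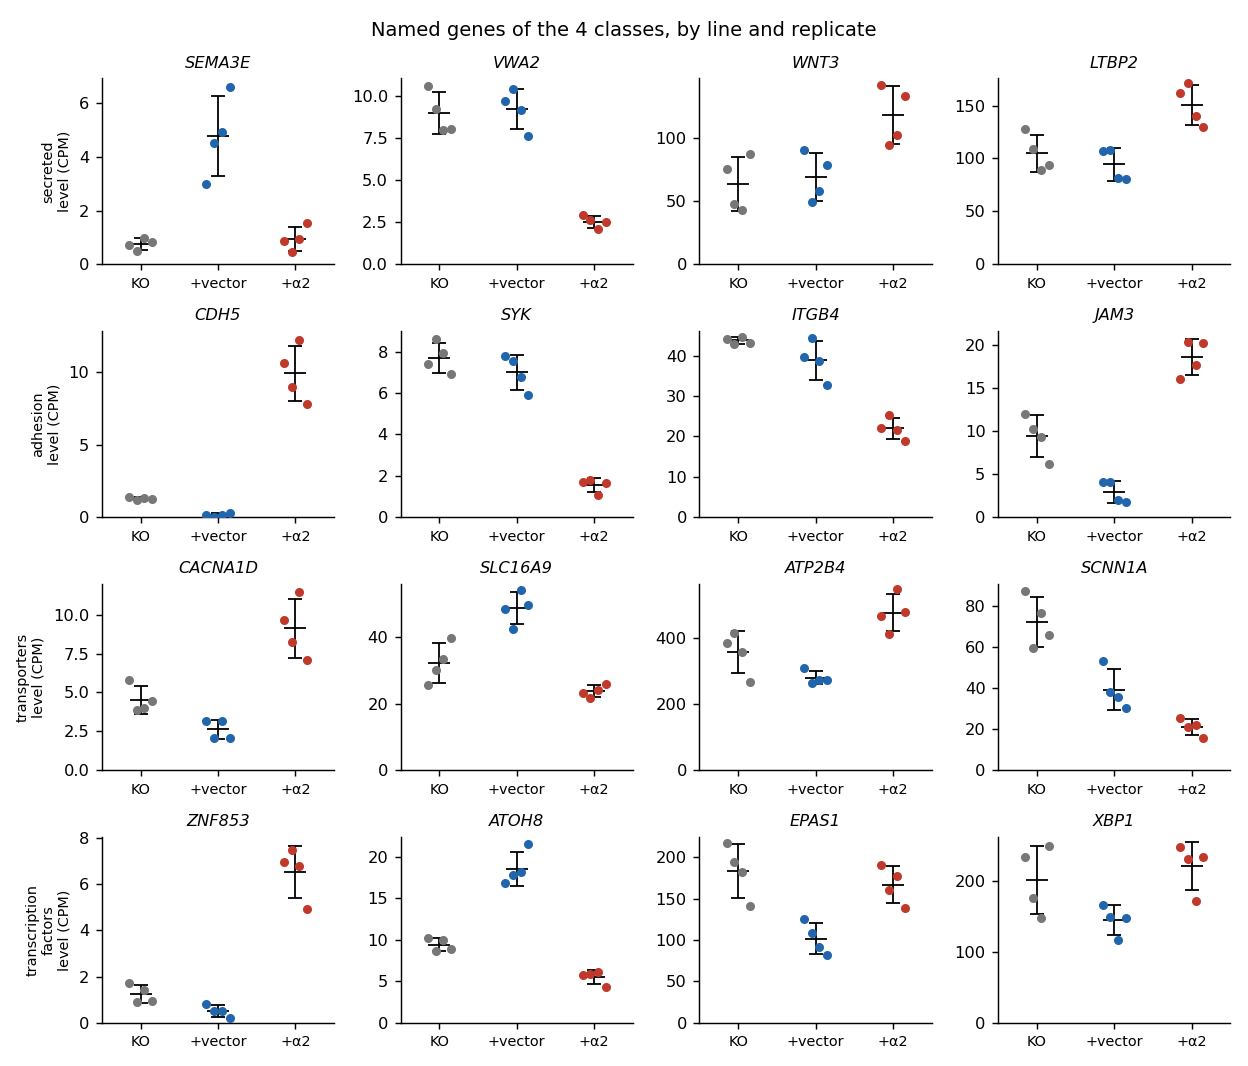
Each panel gives the level of 1 gene in CPM in the 4 replicates (points, 1 to 4 from left to right) of DU145KO, DU145KO+vector and DU145KO+α2, with the mean and SD as bars, in rows of secreted, adhesion, transporter and transcription factor genes. VWA2, SYK and ITGB4 are low in DU145KO+α2 alone, while SEMA3E and EPAS1 separate DU145KO+vector from both other lines.

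Over all genes, the mid-size changes with the smallest p-values included 4 genes outside the classes. SNX21, a sorting nexin of endosomes, was at 295, 269, 258 and 260 CPM against 175, 146, 138 and 128 CPM (log2 fold change 0.89, SE 0.05, adjusted p = 1.07e-12), though exons of ACOT8 on the opposite strand cover 36.5% of its exon bases. TOB1, an antiproliferative adaptor of mRNA deadenylation, was at 261, 269, 249 and 284 CPM against 166, 162, 128 and 151 CPM (log2 fold change 0.81, SE 0.05, adjusted p = 1.89e-11). NRD1, the metalloprotease nardilysin, was lower at 156, 150, 159 and 142 CPM against 255, 262, 248 and 240 CPM (log2 fold change −0.73, SE 0.05, adjusted p = 2.08e-11). For NRD1 the DU145KO samples, at 249, 271, 267 and 225 CPM, stood with the vector line. PTOV1, a gene first described in prostate tumours, was at 94.9, 99.9, 90.0 and 89.4 CPM against 56.2, 55.0, 45 and 44.8 CPM (log2 fold change 0.90, SE 0.06, adjusted p = 5.21e-12).

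Pathways were described by 12 lists of genes, and the interferon list moved most. Interferon stimulated genes encode antiviral proteins, and their promoters often carry sites for the IRF and STAT factors. Of 35 tested, 31 were lower and 1 higher in DU145KO+α2, with 15 of the 31 beyond 2-fold, a median log2 fold change of −0.81 and no overlap between the lines in 28. In a bulk sample a lower level in every cell and fewer cells with a high level cannot be told apart. Fitted without the replicate block, 27 were lower and 1 higher.

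IFIT1, which binds viral RNA, was at 23.6, 18.1, 15.6 and 17 CPM with α2 and 71.3, 45.8, 45 and 48.7 CPM in DU145KO+vector (log2 fold change −1.50, SE 0.07, adjusted p = 6.53e-15). IFIT3, its partner, was at 25.3, 15, 14 and 13.9 CPM against 70, 47.2, 40.9 and 40.3 CPM (log2 fold change −1.55, SE 0.07, adjusted p = 4.24e-15). In both genes replicate 1 was the highest sample of each line. OAS1, which makes the second messenger for RNase L, was at 5.59, 3.35, 4.13 and 3.31 CPM against 14.3, 10, 11.2 and 14.1 CPM (log2 fold change −1.60, SE 0.13, adjusted p = 3.08e-10). ISG15, a ubiquitin-like modifier, was at 27.6, 23.9, 20 and 22.5 CPM against 69.3, 49.2, 43.7 and 40.9 CPM (log2 fold change −1.10, SE 0.07, adjusted p = 1.4e-11). No sample of DU145KO+α2 reached the lowest vector sample in any of these 4 genes.

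The fall was graded along the list. IFI44L fell by 2.38 (SE 0.34), XAF1 by 1.85 (SE 0.28), BST2 (tetherin) by 1.72 (SE 0.28) and IFI44 by 1.61 (SE 0.13). The factors that drive the genes moved little, with IRF7 lower by 0.35 and IRF9 by 0.33, and STAT2 at −0.07 did not pass the test. IFITM2 was the exception, at 55.9, 45.4, 44.2 and 45.5 CPM against 19.9, 14.8, 11.2 and 9.57 CPM (log2 fold change 1.81, SE 0.11, adjusted p = 1.23e-07). Its near-identical neighbours were at −0.68 (IFITM1) and −0.05 (IFITM3, adjusted p = 0.591), so how reads were divided among the 3 is uncertain.

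DU145KO was also above DU145KO+α2 for most of the list but varied more. Its OAS1 samples were at 34.2, 9.89, 11.9 and 19.4 CPM and its IFIT1 samples at 66.0, 30.3, 44 and 47.1 CPM. The list's median log2 fold change was −0.95 for DU145KO+α2 against DU145KO and −0.14 for DU145KO+vector against DU145KO.

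The sequences before the start of IFI44L, BST2, IFI44 and IFIT3 are shown because these were the 4 interferon genes with the largest falls that carry the core of the interferon response element, GAAANNGAA on either strand, in that stretch. Each is the 150 bases before the RefSeq start of the gene in GRCh38.p14, at chr1:78620298-78620447 on the plus strand for IFI44L, chr19:17405631-17405780 on the minus strand for BST2, chr1:78649639-78649788 on the plus strand for IFI44 and chr10:89327847-89327996 on the plus strand for IFIT3. They run 5′ to 3′ along the strand of the gene, with matches in capitals and overlapping matches merged.
IFI44L: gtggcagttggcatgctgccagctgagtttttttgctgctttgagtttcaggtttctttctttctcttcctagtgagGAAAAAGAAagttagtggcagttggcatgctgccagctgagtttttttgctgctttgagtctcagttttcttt
BST2: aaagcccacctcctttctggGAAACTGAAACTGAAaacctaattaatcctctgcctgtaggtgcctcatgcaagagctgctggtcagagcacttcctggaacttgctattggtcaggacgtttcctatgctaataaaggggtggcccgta
IFI44: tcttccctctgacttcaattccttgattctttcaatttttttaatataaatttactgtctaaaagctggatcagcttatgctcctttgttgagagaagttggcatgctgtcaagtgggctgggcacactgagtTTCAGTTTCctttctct
IFIT3: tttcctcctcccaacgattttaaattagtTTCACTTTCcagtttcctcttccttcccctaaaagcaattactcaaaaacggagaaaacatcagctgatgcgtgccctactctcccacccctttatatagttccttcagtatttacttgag

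Of the 27 tested interferon genes with a promoter in the table used, 16 (59.3%) held GAAANNGAA within 250 bases before the start, beside 5.28% of the 11373 promoters of tested genes. Of 10 MHC class I and peptide loading genes with a promoter there, 6 (60.0%) held it. ACGTG, the core of the hypoxia response element, was in 13 of 31 promoters (41.9%) of the glycolysis and hypoxia list, beside 23.2% of all. TCACNCCAC, the letters of a sterol response element, was in 0 of 24 cholesterol and fatty acid promoters and in 0.791% of all. A match is a description of the letters only.

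MHC class I and peptide loading genes, which present peptides to T cells and are induced by interferons, were lower together but by less. Of 13 tested 12 were lower and 0 higher, with 0 beyond 2-fold and a median of −0.49. HLA-B was at 399, 391, 359 and 298 CPM in DU145KO+α2 against 605, 600, 515 and 412 CPM (log2 fold change −0.55, SE 0.05, adjusted p = 5.49e-09). B2M, the light chain, was at 2080, 1520, 1690 and 1510 CPM against 2780, 2370, 2460 and 1980 CPM (log2 fold change −0.50, SE 0.06, adjusted p = 3.32e-07). In B2M the highest DU145KO+α2 sample was above the lowest vector sample, so only the numbered pairs separated fully. NLRC5, the transactivator of these genes, was at 14.6, 15.1, 12.4 and 12.9 CPM against 22.5, 23.1, 24.9 and 19.5 CPM (log2 fold change −0.71, SE 0.09, adjusted p = 4.16e-07). Reads of the HLA genes may be shared among paralogs.

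MHC class II genes did not follow. Of 10 tested 3 were higher and 2 lower. CD74, the invariant chain, fell by 0.59 (SE 0.07, adjusted p = 4.22e-07) and HLA-DRB1 rose by 0.74 (SE 0.10, adjusted p = 1.06e-06). HLA-DRA was at 2.23, 1.8, 1 and 1.46 CPM with α2 and 2.71, 1.79, 1.15 and 0.757 CPM in DU145KO+vector (adjusted p = 0.943), while DU145KO had 23.4, 13.7, 12.7 and 13.3 CPM. Both transfected lines were therefore low for HLA-DRA relative to their parent, whatever their α2.

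**Figure D4:**
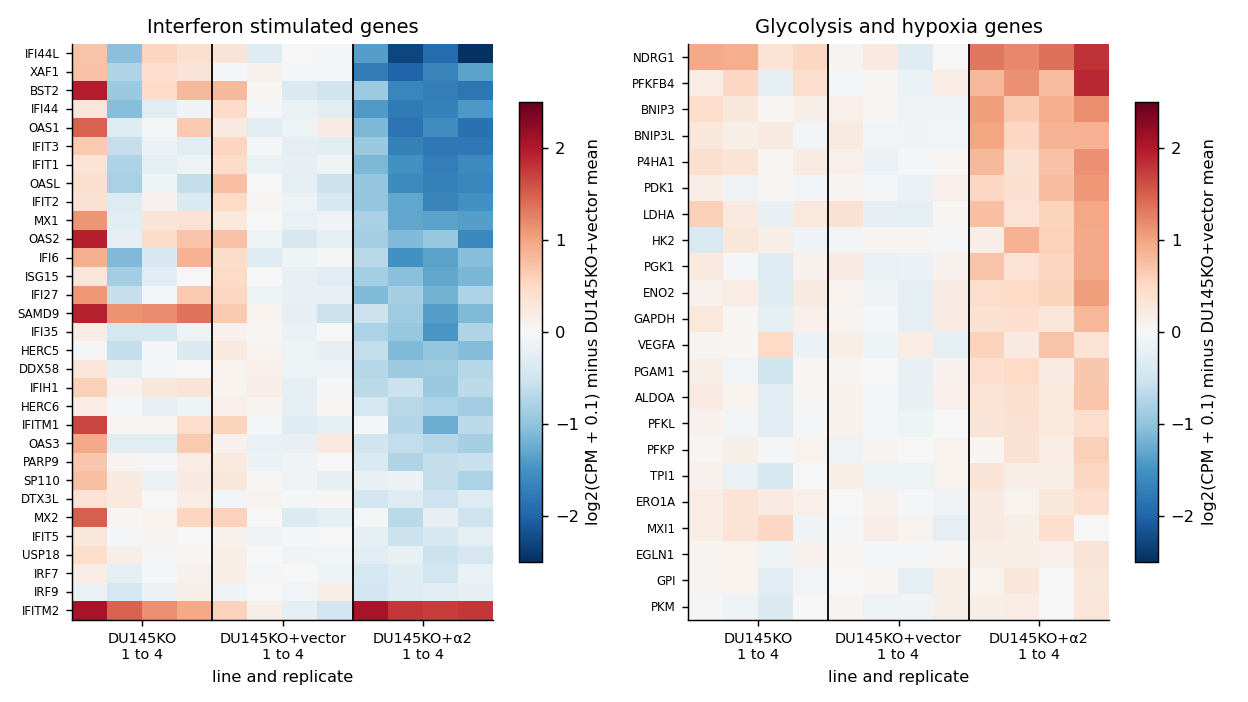
Colours give log2(CPM + 0.1) minus the DU145KO+vector mean of called genes, for the interferon list on the left and the glycolysis and hypoxia list on the right, with genes in rows and replicates 1 to 4 of each line in columns. In DU145KO+α2 the interferon genes are blue except IFITM2 and the glycolysis and hypoxia genes are red, and in DU145KO the interferon genes vary between replicates.

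Glycolysis and hypoxia genes were higher, most by less than 2-fold. Of 34 tested 22 were higher and 0 lower, with 2 beyond 2-fold, a median of 0.30 and no overlap between the lines in 16. Without the replicate block 15 were higher and 0 lower. Each glycolytic step from hexokinase (HK2) to lactate dehydrogenase (LDHA) held a called gene, and for enolase it was the neuronal form ENO2, which rose by 0.64, while ENO1 was at 0.11 and did not pass the test.

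PGK1, phosphoglycerate kinase, was at 396, 313, 351 and 470 CPM with α2 and 281, 216, 219 and 262 CPM in DU145KO+vector (log2 fold change 0.64, SE 0.06, adjusted p = 3.56e-09). PDK1, which holds pyruvate back from mitochondria, was at 24.7, 22.9, 29.7 and 36.8 CPM against 18.1, 16.7, 15.6 and 18.9 CPM (log2 fold change 0.70, SE 0.09, adjusted p = 4.07e-06). BNIP3, a mitophagy receptor, was at 257, 195, 231 and 277 CPM against 135, 128, 117 and 117 CPM (log2 fold change 0.94, SE 0.09, adjusted p = 4.29e-05). Replicate 4 was the highest DU145KO+α2 sample for all 3 genes.

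NDRG1, a stress induced gene, rose by 1.42 (SE 0.18, adjusted p = 0.012), PFKFB4, which sets fructose 2,6-bisphosphate, by 1.18 (SE 0.12, adjusted p = 4.84e-07) and VEGFA by 0.47 (SE 0.06, adjusted p = 3.78e-07). Other hypoxia genes did not pass: SLC2A1, the main glucose carrier, was at −0.06 (adjusted p = 0.499) and ADM, adrenomedullin, at −0.49 (adjusted p = 0.065). The median of the list against DU145KO was 0.32, and that of DU145KO+vector against DU145KO was −0.06.

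Of 30 cholesterol and fatty acid synthesis genes tested 16 were higher and 1 lower, with 0 beyond 2-fold and a median of 0.20. In the fit without the replicate block 7 were higher and 1 lower. FDFT1, squalene synthase, was at 139, 129, 144 and 160 CPM with α2 against 86.8, 73.1, 60.0 and 74.7 CPM (log2 fold change 0.96, SE 0.09, adjusted p = 3.89e-05). The lines did not overlap, and the gene lies on chromosome 8, where its neighbours had a median of 0.45. ELOVL6, a fatty acid elongase, fell by 0.46 (SE 0.07, adjusted p = 4.58e-06).

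About as many genes of the stress lists were called lower as were not called. NRF2 targets, the antioxidant genes, had 14 lower and 2 higher of 27, with a median of −0.20. Without replicate 1 of DU145KO+vector 8 were lower, and without replicate 1 of DU145KO+α2 9. TXN, thioredoxin, fell by 0.61 (SE 0.06, adjusted p = 2.64e-08) and GCLC, which starts glutathione synthesis, by 0.50, while HMOX1 rose by 0.18 (SE 0.06, adjusted p = 0.0256) and was called in 3 of 12 fits that left out samples. Genes of the unfolded protein and amino acid stress responses had 14 lower and 2 higher of 33, with a median of −0.15. The count lower was 8 without replicate 2 of either line, 9 by DESeq2 and 4 with all 12 samples in one model. PSAT1, an enzyme of serine synthesis, fell by 0.56 (SE 0.05, adjusted p = 8.27e-09), DDIT3 by 0.33 and HSPA5, the chaperone BiP, by 0.19, although XBP1 rose. TXN, PSAT1 and HSPA5 are on chromosome 9, where their neighbours had medians of −0.30, −0.25 and −0.30. Fitted without the replicate block, the lower counts were 5 for NRF2 targets and 1 for the stress genes.

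The proliferation lists had medians below 0, but few mitosis genes were called and replicates differed. Of 34 DNA replication genes 11 (32.4%) were lower and 1 (2.94%) higher, with a median of −0.25, beside 15.5% and 14.3% of all genes tested. PCNA, the sliding clamp, was at 83.4, 75.9, 71.1 and 91.3 CPM against 107, 82.2, 90.4 and 115 CPM (log2 fold change −0.29, SE 0.06, adjusted p = 0.000204). CDC6, which loads the MCM helicase, fell by 0.70 (SE 0.13, adjusted p = 0.00117). Of 32 mitosis genes 2 (6.25%) were lower and 1 (3.12%) higher, both shares under those of all genes, with a median of −0.32. With voom and limma and the same block, 18 mitosis and 20 replication genes were lower. Without the replicate block 0 mitosis genes were lower and 1 higher, and 2 replication genes were lower and 0 higher. CCNB2, a mitotic cyclin, fell by 0.51 (SE 0.13, adjusted p = 0.016) and KIF11, a spindle motor, by 0.32, while UBE2C, an anaphase ubiquitin enzyme, rose by 1.03 (SE 0.07, adjusted p = 9.29e-10).

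The MKI67 values show the spread, at 41.7, 82.3, 46.2 and 115 CPM with α2 and 56, 61.7, 83.8 and 171 CPM in DU145KO+vector (adjusted p = 0.411). In replicates 1, 3 and 4 the vector sample was the higher one and in replicate 2 the lower one. Without replicate 2 of either line 25 of the 32 mitosis genes and 23 of the 34 replication genes were lower, with 1 higher in each list. Without replicate 4 the counts lower were 0 and 7. The median of the mitosis list was 0.11 against DU145KO, and that of DU145KO+vector against DU145KO was 0.42.

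MAP kinase and YAP lists showed no common direction. Of 27 p38 pathway genes 6 were higher and 6 lower, with a median of 0.03. With samples left out in turn, 3 to 5 were lower, and by DESeq2 2. MAPK14, p38α, was at 107, 104, 106 and 106 CPM against 109, 123, 122 and 119 CPM (log2 fold change −0.16, SE 0.05, adjusted p = 0.022), and MAP2K6, a kinase that activates it, fell by 0.44 (SE 0.16, adjusted p = 0.0352). DUSP8 and DUSP16, phosphatases of stress kinases, rose by 0.64 and 0.48. Without the replicate block 1 of the p38 genes was higher and 1 lower.

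Of 21 ERK feedback genes 4 were higher and 2 lower, and these 28.6% called are no more than the 29.8% of all genes tested. DUSP4, an ERK phosphatase, was at 50.6, 34.6, 49.9 and 28.0 CPM against 27.9, 18.2, 16.8 and 12.8 CPM (log2 fold change 1.12, SE 0.10, adjusted p = 5.36e-06). It lies on chromosome 8, where the median of its neighbours was 0.42, and DU145KO samples were at 38.3, 25.9, 38.8 and 30.4 CPM. DUSP6 rose by 0.38 (SE 0.07, adjusted p = 0.000133) and DUSP5 fell by 0.41 (SE 0.08, adjusted p = 0.00286).

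Of 23 YAP and TEAD targets 4 were higher and 5 lower. CTGF and CYR61, the matricellular proteins most used as readouts of YAP, fell by 0.66 (SE 0.10, adjusted p = 7.42e-06) and 0.49 (SE 0.07, adjusted p = 2.38e-06). CTGF was at 12.3, 10.7, 10.9 and 8.14 CPM with α2, 21, 16.5, 14.3 and 14.9 CPM in DU145KO+vector and 14.1, 8.00, 10.2 and 9.36 CPM in DU145KO, so it was the vector line that stood high. F3, tissue factor, rose by 0.58 (SE 0.07, adjusted p = 3.81e-07) and TGFB2 by 0.39 (SE 0.09, adjusted p = 0.00118).

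**Figure D5:**
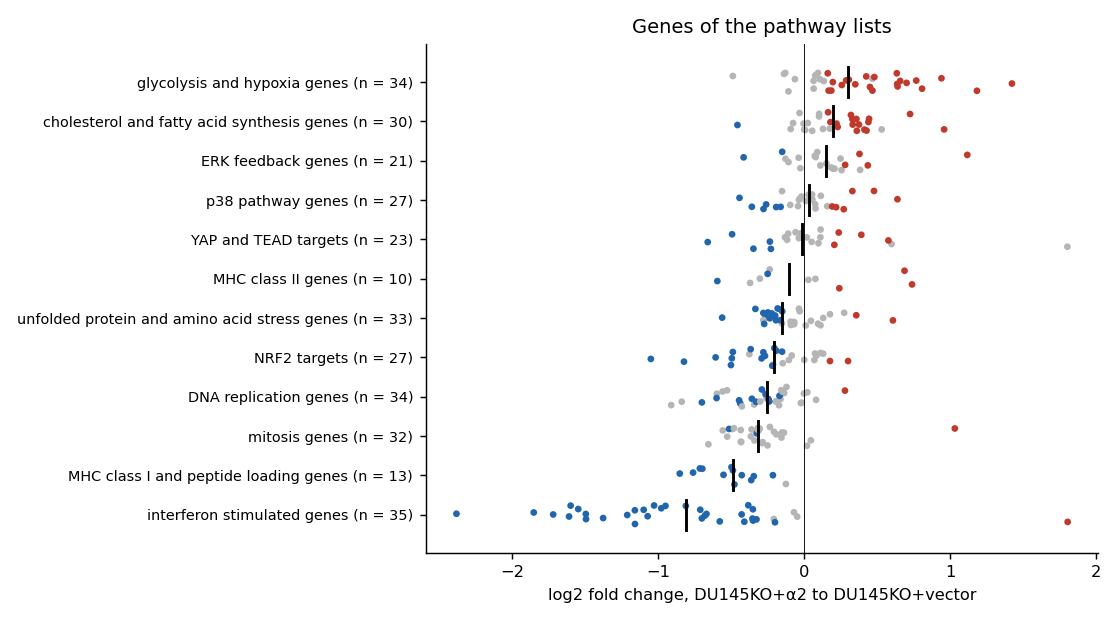
Each point is the log2 fold change of 1 gene of a pathway list between DU145KO+α2 and DU145KO+vector, red for called higher, blue for called lower and grey for not called, with a black bar at the list's median and n genes tested. The medians run from −0.81 for interferon stimulated genes to 0.30 for glycolysis and hypoxia genes.

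Part of the mid-size signal lay in blocks along chromosomes. On chromosome 9, 373 of 606 genes tested (61.6%) were lower and 31 higher, with a median log2 fold change of −0.30. On chromosome 8, 172 of 490 (35.1%) were higher and 46 lower. When each gene was given the median of its 50 nearest tested neighbours, 525 genes had a median of −0.2 or less, of which 359 were lower and 18 higher, and 175 had 0.2 or more, of which 132 were higher and 2 lower. Over the 13664 genes between these limits, 1909 (14%) were higher and 1866 (13.7%) lower. With the neighbours' median taken away, 3988 genes were called, 3449 of them among the 4303 and in the same direction.

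The blocks touched the secreted class least. With the neighbours' median taken away, 83 secreted genes were higher and 61 lower (84 and 65 before), and 54 adhesion genes higher and 54 lower (59 and 51 before). Of the transporters 83 were higher and 70 lower (85 and 80 before). Transcription factors had 157 higher and 60 lower (164 and 75 before), and the nuclear receptors among them 10 higher and 0 lower (10 and 3 before). The interferon list again had 31 lower and 1 higher, and the glycolysis and hypoxia list 23 higher and 0 lower.

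Epithelial markers were present, and most prostate lineage markers were at or near 0. All 9 epithelial markers were above 3 counts in at least 1 of the 8 samples, and their summed level was 1100 to 1460 CPM with α2 and 1440 to 1680 CPM in DU145KO+vector. Of the 8 tested 5 were lower (KRT8, EPCAM, KRT18 and KRT19 among them) and 1 higher (CLDN4). The luminal genes KLK2, KLK3, FOLH1 and HOXB13 and the basal genes KRT5, KRT14, KRT17 and TP63 had at most 3 counts in every sample. The luminal list still summed to 24.7 to 33.9 CPM in DU145KO+α2 and 18.9 to 25.1 CPM in DU145KO+vector. Its 1 gene tested was called higher (log2 fold change 0.42), but not with the neighbours' median taken away. The basal list summed to 21.8 to 35.3 CPM and 25.9 to 33.2 CPM, with 2 genes tested and 0 called. Of 12 endothelial markers 2 were higher (CDH5 and KDR) among 4 tested, and without CDH5 the others summed to 4 to 4.97 CPM with α2 and 1.95 to 3.43 CPM in the vector line, with EMCN, ERG, ROBO4, TEK and TIE1 at 3 counts or fewer. Of 10 fibroblast markers 1 was tested and not called, and COL1A2, COL3A1, DCN, FAP, LUM, POSTN and THY1 were at 3 counts or fewer. Of 8 neuroendocrine markers 1 was tested, and it was called higher (log2 fold change 0.99). That list summed to 1.3 to 2.35 CPM with α2 and 0.861 to 1.26 CPM in the vector line. Of 10 immune markers 5 were tested (CD79A, CD68, CD14, LYZ and ITGAM), and the list summed to 120 to 245 CPM in DU145KO+α2 and 183 to 317 CPM in DU145KO+vector. Of these CD79A was lower by 0.88 (adjusted p = 0.0135), with means of 99.9 and 176 CPM, CD68 had means of 66.3 and 70.3 CPM (adjusted p = 0.315), and PTPRC, CD3E, CSF1R and NKG7 were at 3 counts or fewer.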

How the data were processed

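The authors prepared stranded mRNA libraries, aligned 50-base single-end reads to hg38 with TopHat2 2.1.0, counted reads per known gene with Subread 1.5.0, and deposited these counts without normalization. The authors deposited RPKM values too, made after TMM scaling. Only the counts were tested. Base calling used bcl2fastq 1.8.4, per the submitters' processing notes. Neither table holds the authors' own comparisons, and 0 columns of per-sample values were left unmapped.

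In R 4.3.3, counts of the 8 samples were filtered with filterByExpr of edgeR 4.0.16 (minimum count 10), scaled by TMM and fitted with line and replicate number, with robust dispersions and the quasi-likelihood F-test. All tests were two-sided. Replicate numbers come from the sample titles. The definition of this comparison names the replicate number as a block, although no label says what a number shares. Deviations from the group means correlated within the 4 numbered pairs at 0.51, 0.305, 0.358 and 0.399. Correlations between differently numbered samples are not given. The methods call the replicates independent biological ones, and replicate libraries did not agree within sampling noise. Floors cover counting error only, while SEs and SDs also include variation between replicates.

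Classes and pathway lists are sets of gene symbols. The comparison, lists and rules were chosen with earlier results of these data known, and entries that were not secreted proteins, transporters or transcription factors were removed after values had been seen. Lists are described by counts and medians, without a test. Some genes, 1 of the 36 that the rule names among them, are not reported here. The rule takes ITGA2 and, per class, among called genes whose lines did not overlap and whose mean level was 1 log2 CPM or more, the 2 with the largest change in each direction above 2-fold and the 2 with the smallest p in each direction at or below it, and likewise the 3 with the smallest p in each direction at or below 2-fold over all genes. Other genes named are examples from the lists, chosen after their values were seen. Positions, promoters and neighbours are from RefSeq (GRCh38.p14, the build of the files) and exons from GENCODE. Positions and promoters were matched by Entrez identifier and exons by symbol, and promoters were found for 11373 tested genes.

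Alternatives were DESeq2 1.42.0 (Wald test, and size factors alone), limma 3.58.1 with voom, library size alone, no filter, at least 10 counts in every sample, no replicate block, all 12 samples, removal of the regional median, other thresholds, and samples left out.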

Additional observations from a re-analysis of the deposited data

Results flagged for a closer look

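Within the 4 DU145KO+α2 samples, 3 of the named genes had 1 sample far from the other 3, by Dixon's ratio of the gap to the range. STC1 reached 0.842, with replicate 4 at 20.2 CPM and the others at 11.3 to 12.7 CPM. CEACAM6 reached 0.899, with replicate 2 at 27.5 CPM and the others at 17.4 to 18.4 CPM. ATOH8 reached 0.831, with replicate 4 at 4.26 CPM and the others at 5.77 to 6.08 CPM. Chance flags about 1 in 20 groups, which is 3.7 of the 74 groups looked at, so 3 is no more than chance gives. Non-overlap of the 2 lines was a condition for naming these 3 genes and says nothing more about these samples.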

How the results depend on the processing

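Of the 36 genes named by rule none reversed under the alternatives run, of which the one with at least 10 counts in every sample tested 31. The rule admits only called genes whose lines did not overlap, so a reversal was hardly possible and its absence is no further support. The other genes named were not followed through the alternatives. Without the replicate block the paired information is lost and 905 genes were higher and 903 lower, 704 and 788 of them among genes higher by less than 2-fold and genes lower by less than 2-fold. Class counts, higher and lower, were then 55 and 34 for secreted, 26 and 29 for adhesion, 41 and 35 for transporters and 72 and 34 for transcription factors. The DESeq2 Wald test, with the block, gave 1349 higher and 1358 lower (1173 and 1265 at 2-fold or less), with 43 secreted genes lower, 35 adhesion genes higher, 51 transporters higher and 49 lower, and 100 transcription factors higher and 48 lower. At an adjusted p below 0.01 the counts were 1348 and 1444 (1148 and 1330 at 2-fold or less), with 37 adhesion genes, 54 transporters and 106 transcription factors higher, fewer by construction. With at least 10 counts in every sample, 121 genes were higher and 70 lower by more than 2-fold, and genes of few reads are then not tested. The cause of the DESeq2 difference was not tested. Other totals and class counts stayed within 1.5 times, fits without a sample included. Pathway counts did not: with samples left out, the count lower was 0 to 25 for mitosis, 7 to 23 for DNA replication, 8 to 15 for NRF2 targets and 8 to 13 for the unfolded protein and amino acid stress genes, and 27 to 32 for interferon genes, while 19 to 20 glycolysis and hypoxia genes were higher. STC1 and CEACAM6 passed the threshold in neither the unfiltered fit nor the fits without replicate 2 or 3 of a line, and STC1 did not pass with the regional median removed.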
